A study of Mus musculus with 2 samples.

Results

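The genes described here encode subunits of the mitochondrial respiratory chain and ATP synthase, with cytochrome c and a set of assembly factors. They were chosen by symbol among probe sets that the platform annotation assigns to exactly 1 gene. Each probe set is several short probes that read 1 transcript or, in some cases, related transcripts as well. The symbols start with Nduf, Uqcr or Atp5, are Cox followed by a digit, or are Sdha to Sdhd, Cyc1 or Cycs. This gave 202 probe sets and 100 genes, of 45037 probe sets and 18193 named genes in all. The brightest probe set stood for each gene. The rule uses symbols only, not measured values.

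Expression was measured in CD4 T cells from the spleens of C57BL/6 mice, 1 array for the CD103+ Th1 culture and 1 for the Th1 culture. The CD103+ Th1 culture received 3 ng/ml of IL-4, 10 ng/ml of IFN-γ and 3 ng/ml of TGF-β. The Th1 culture received 1 ng/ml of IL-12 and 1 µg/ml of the IL-4-blocking antibody 11B11. In both, cells sorted to above 98% purity were stimulated for 2 days with immobilised antibody against the T cell receptor and antibody against CD28 and were kept for 3 further days. The number of mice is not given in the labels. With 1 array a condition there is no replicate error and no test, so "higher" and "lower" compare these 2 arrays only.

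Values are signals in arbitrary units. A floor of 78.5, the median of all signals, was used because low signals are mostly background. Of the 100 genes, 95 exceeded the floor on both arrays, and 5 lay under it on both and have no ratio. These 5 are Ndufb4, Cox4i2, Cox7b2, Cox8b and Ndufa4l2. In all, 11162 genes were above the floor on at least 1 array and are called measured. Of the 95 genes, 76 were among the brightest 25% of measured genes by mean signal, hereafter the bright genes.

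The respiratory chain passes electrons through complexes in the inner mitochondrial membrane. Complex I takes them from NADH and complex II from succinate, complex III hands them to cytochrome c, and complex IV reduces oxygen. Complexes I, III and IV pump protons, and ATP synthase, called complex V, uses the returning protons to make ATP. Activated T cells raise both glycolysis and mitochondrial respiration, and nuclear genes encode most subunits while the mitochondrial genome encodes a few.

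Most of these genes had a slightly lower signal in CD103+ Th1 than in Th1. The ratio of CD103+ Th1 over Th1 was below 1 for 84 of 95 genes (88.4%), compared with 52.6% of all measured genes and 55.7% of the bright genes. The median log2 ratio was -0.24, a signal 1.18-fold lower, against -0.03 over all measured genes and -0.04 over the bright ones. The middle of the distribution was narrow, with quartiles of -0.43 and -0.13. In a bulk sample, less RNA per cell and fewer cells that hold it cannot be told apart.

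The shift was one of direction more than of size. A log2 ratio of 0.32, a difference of 25% in signal, served as a low threshold. At -0.32 or lower were 32 of 95 genes (33.7%), against a background of 26.5% of all measured genes and 24.1% of the bright genes. That excess depended on the scaling and on the genes counted. With quantile normalization the shares were 28.4% of these genes against 28.2% of all measured genes. With ratios centred by a lowess curve over mean signal they were 28.4% against 26.5%. Without the assembly factors, 23 of 79 genes (29.1%) were at -0.32 or lower in the unscaled signals, against 26.5% of all measured genes. At 0.32 or higher were 0 of 95, against 23.6% of all measured genes and 19.8% of the bright ones. At 1.5-fold, 13 genes (13.7%) were lower, next to 13.4% of all measured genes. Only 1 gene of the 95, Cox6b2, was at least 2-fold lower, where the background was 4.88%, and 0 were at least 2-fold higher, where it was 5.04%. The share lower by 1.5-fold was therefore close to that of all measured genes, and 2-fold differences were rarer than among all measured genes. Large ratios were also less common among bright genes in general. Of the 2791 bright genes, 293 fell by 1.5-fold or more. A change of 2-fold or more was seen in 64 downward and 111 upward. Of the 76 bright respiratory genes, 7 fell by 1.5-fold or more, and 0 changed by 2-fold or more. The part of brightness in this rarity was not tested.

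**Figure D1:**
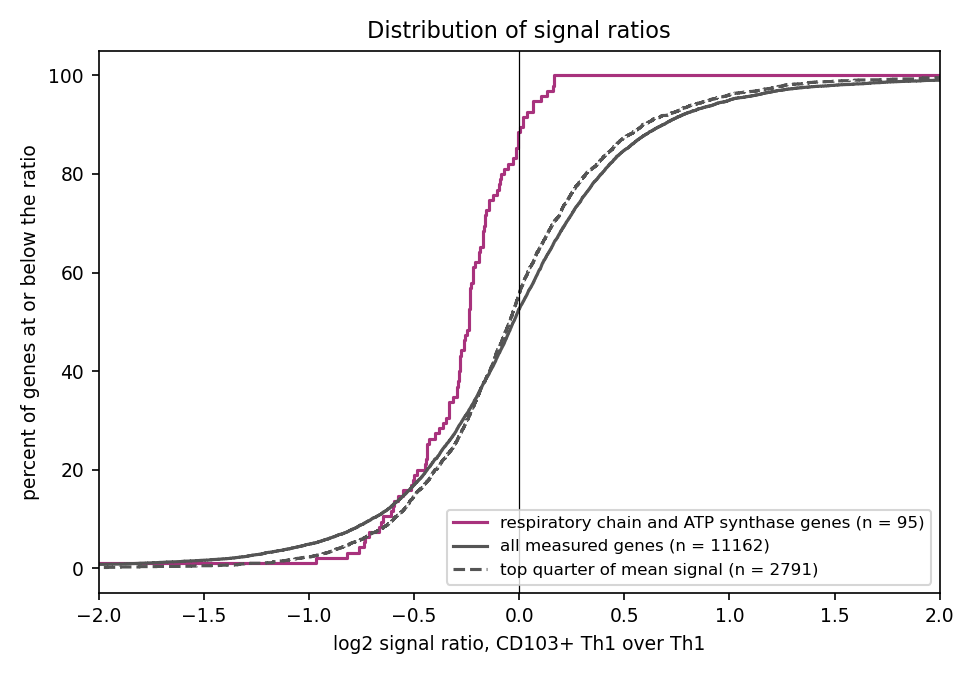
Cumulative distribution of the log2 signal ratio, CD103+ Th1 over Th1 (x axis), as a percent of genes (y axis), for the 95 respiratory chain and ATP synthase genes, all 11162 measured genes and the 2791 brightest of these. The curve of the 95 genes is steep and reaches 88.4% at a ratio of 1, where all measured genes are at 52.6%.

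The medians of complexes I, II, III, IV and V were -0.26, -0.42, -0.27, -0.16 and -0.23 on the log2 scale, and that of the assembly factors was -0.37. Each group had most of its genes below 1, namely 30 of 33 in complex I, 4 of 4 in complex II, 8 of 9 in complex III, 13 of 15 in complex IV, 15 of 17 in complex V and 13 of 16 assembly factors. Of all measured genes, 52.6% were below 1. Several of the 13 in complex IV were close to 0 on the log2 scale. Cox7a1 was at -0.03, Cox4i1 at -0.02, Cox8a and Cox7a2l at -0.01 and Cox6a2 at -0.003. With the arrays set to equal medians, Cox8a, Cox7a2l and Cox6a2 were above 0. Ndufa4 was counted in complex IV, where its protein is now placed, although its symbol names complex I. The ranges of single genes overlapped between all these groups, and no order among the complexes is drawn from the medians.

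**Figure D2:**
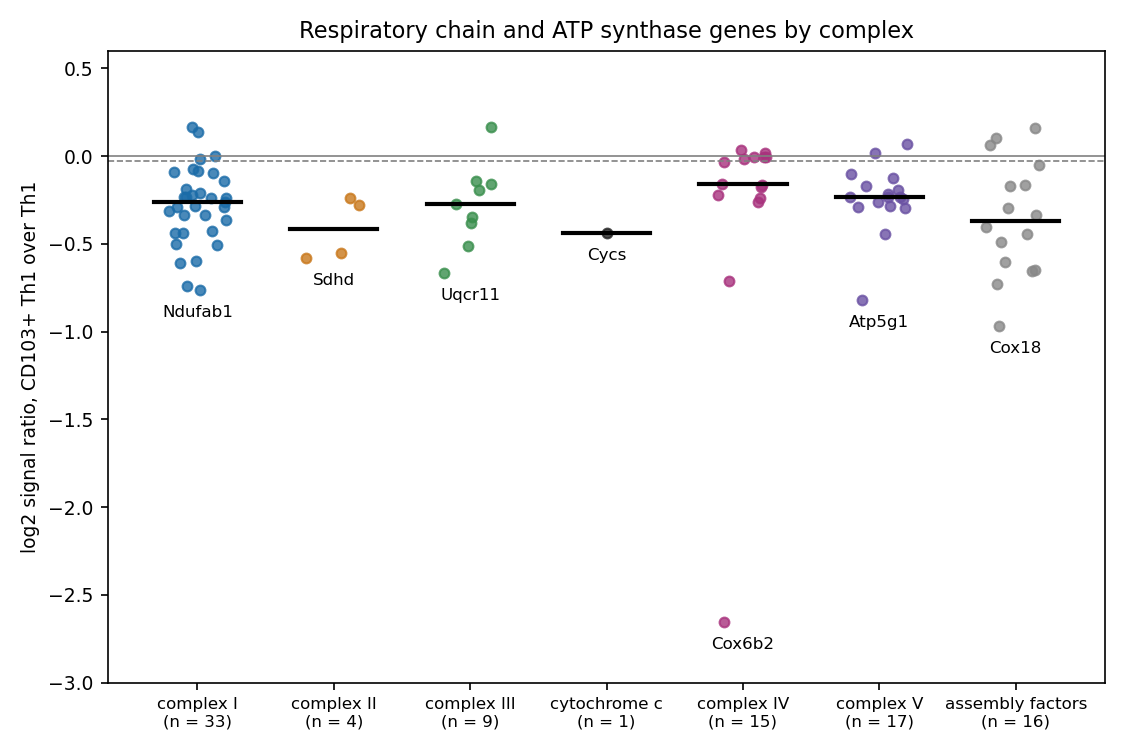
Log2 signal ratio, CD103+ Th1 over Th1, of each measured gene (points) by complex, with the median of each group as a black bar and the median of all measured genes, -0.03, as a dashed line. The gene with the lowest ratio of each group is named, and Cox6b2 in complex IV lies far below the rest at -2.66.

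Complex I holds the genes of 33 measured subunits. The lowest ratio was that of Ndufab1, the mitochondrial acyl carrier protein that also serves fatty acid synthesis, with a signal of 3603 in CD103+ Th1 against 6118 in Th1. This is 1.70-fold lower, and its 3 measured probe sets had log2 ratios from -0.76 to -0.53. Ndufb1, a small membrane subunit, had 229.7 in CD103+ Th1 against 382.9 in Th1, 1.67-fold lower. Every measured probe set of both genes was below 0.

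Other membrane arm genes followed. Ndufb6 had 4462 in CD103+ Th1 against 6811 in Th1, 1.53-fold lower. Ndufc1 had 6040 in CD103+ Th1 against 9135 in Th1, 1.51-fold lower. Both encode accessory subunits of the proton-pumping membrane arm, and each had 2 probe sets below 0.

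Genes of the matrix arm, where NADH is oxidised, differed less at their lowest. Ndufa5 had 1805 in CD103+ Th1 against 2565 in Th1, 1.42-fold lower, with its 2 probe sets at -0.55 and -0.51. Ndufa12 had 5997 in CD103+ Th1 against 8470 in Th1, 1.41-fold lower, while a dim probe set of the gene, whose Th1 signal was under the floor and was set to it, gave 0.13. The 14 matrix arm genes had a median of -0.24 and the 18 membrane arm genes one of -0.30, with 3 genes (21.4%) and 8 genes (44.4%) at -0.32 or lower, against 26.5% of all measured genes. The difference between the arms was not tested.

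The core subunits of the matrix arm include those that carry the flavin and the iron-sulphur clusters. Of the 6 measured, Ndufs7, Ndufs1, Ndufs8 and Ndufs3 had log2 ratios from -0.29 to -0.24. Ndufv2, an iron-sulphur subunit, was at -0.09, and none of the 6 reached -0.32 on its brightest probe set. A second probe set of Ndufs7 was at -0.36. Those of Ndufs8 ran from -0.75, on a dim one, to -0.12. Ndufv1, which binds NADH and the flavin, was the only one of the 6 genes above 0. It had 3369 in CD103+ Th1 against 3069 in Th1, a log2 ratio of 0.13, but its 3 probe sets ran from -0.19 to 0.13.

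A few complex I genes had almost equal signals on both arrays. Ndufb10 had 4570 in CD103+ Th1 against 4565 in Th1. Ndufs4, an accessory subunit needed for a stable NADH-oxidising module, had 3132 in CD103+ Th1 against 3166 in Th1, and its other 2 probe sets were above 0. Ndufa6 was the highest, with 6525 in CD103+ Th1 against 5821 in Th1, a log2 ratio of 0.16.

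Complex II, succinate dehydrogenase, is the link between the Krebs cycle and the chain and has no subunit encoded in the mitochondrial genome. All 4 genes were lower in CD103+ Th1. Sdhd, a membrane anchor, had 3192 in CD103+ Th1 against 4766 in Th1, 1.49-fold lower, and Sdhb, the iron-sulphur subunit, had 5910 in CD103+ Th1 against 8675 in Th1, 1.47-fold lower. Sdhc, the other anchor, had 1524 in CD103+ Th1 against 1851 in Th1, 1.21-fold lower. Sdha, the flavoprotein that oxidises succinate, had 4251 in CD103+ Th1 against 5019 in Th1, 1.18-fold lower, and a dim probe set of it was at 0.05. The 2 larger differences, in Sdhd and Sdhb, were thus outside the catalytic flavoprotein.

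In complex III the small subunits spread more than the catalytic ones. Uqcr11 had 3825 in CD103+ Th1 against 6077 in Th1, 1.59-fold lower, and Uqcr10 had 3727 in CD103+ Th1 against 5321 in Th1, 1.43-fold lower. Uqcrq, a further small subunit, had 5591 in CD103+ Th1 against 7292 in Th1, 1.30-fold lower, with a dim probe set at 0.18. Uqcrb, another small subunit, was 1.14-fold lower.

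Uqcrh, the hinge protein that helps cytochrome c dock, went the other way. It had 12313 in CD103+ Th1 against 10990 in Th1 on its brightest probe set, and both its probe sets were above 0, at 0.16 and 0.35. It was the only complex III gene above 0. Among the catalytic subunits, Cyc1 (cytochrome c1) had 4122 in CD103+ Th1 against 5239 in Th1, 1.27-fold lower, and Uqcrfs1 (the Rieske iron-sulphur protein) had 4494 in CD103+ Th1 against 5437 in Th1, 1.21-fold lower. The core proteins Uqcrc1 and Uqcrc2 were at -0.16 and -0.14. A second probe set of Uqcrc2 had 5813 in CD103+ Th1 against 7523 in Th1, a log2 ratio of -0.37.

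Cycs encodes cytochrome c, the soluble carrier between complexes III and IV, which also triggers apoptosis when it leaves the mitochondrion. It had 12402 in CD103+ Th1 against 16813 in Th1, 1.36-fold lower, and its 3 measured probe sets had log2 ratios from -0.54 to -0.16. Their direction was the same.

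Complex IV held the largest difference of all the genes. Cox6b2 had a signal of 267.6 in CD103+ Th1 against 1686 in Th1, 6.30-fold lower, on the gene's only probe set. Its product is the isoform of subunit VIb known from testis. Cox6b1, the general isoform, had 15416 in CD103+ Th1 against 18190 in Th1, 1.18-fold lower, and its 2 probe sets were at -0.24 and -0.07. The Cox6b2 signal lay above the floor on both arrays. With the floor at the 75th percentile of signals, which is above its signal in CD103+ Th1, the log2 ratio was -1.84 in place of -2.66.

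Ndufa4 came next, with 3443 in CD103+ Th1 against 5645 in Th1, 1.64-fold lower on its only probe set. Most other general isoforms differed little. Cox5a, a subunit on the matrix side, had 17284 in CD103+ Th1 against 20710 in Th1, 1.20-fold lower. Cox4i1, the general form of subunit IV, had 15400 in CD103+ Th1 against 15575 in Th1. Cox7a2 and Cox6c were at -0.22 and -0.17, Cox6a1 and Cox5b at -0.17 and -0.16, and Cox8a at -0.01. These are signals among the brightest on the arrays, whose highest values were 36373 in CD103+ Th1 against 36496 in Th1.

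Other tissue isoforms of complex IV showed no such difference as Cox6b2. Cox7a1, the heart and muscle form, had 293.6 in CD103+ Th1 against 300.1 in Th1. Cox8c, also known from testis, had 322.9 in CD103+ Th1 against 314.6 in Th1. Cox6a2, another heart and muscle form, had 82.7 in CD103+ Th1 against 82.9 in Th1, barely above the floor. Cox4i2, Cox7b2 and Cox8b lay under the floor. Cox7a2l, a factor linked to supercomplexes of complexes III and IV, had 7263 in CD103+ Th1 against 7294 in Th1, and its 3 probe sets ran from -0.01 to 0.08.

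**Figure D3:**
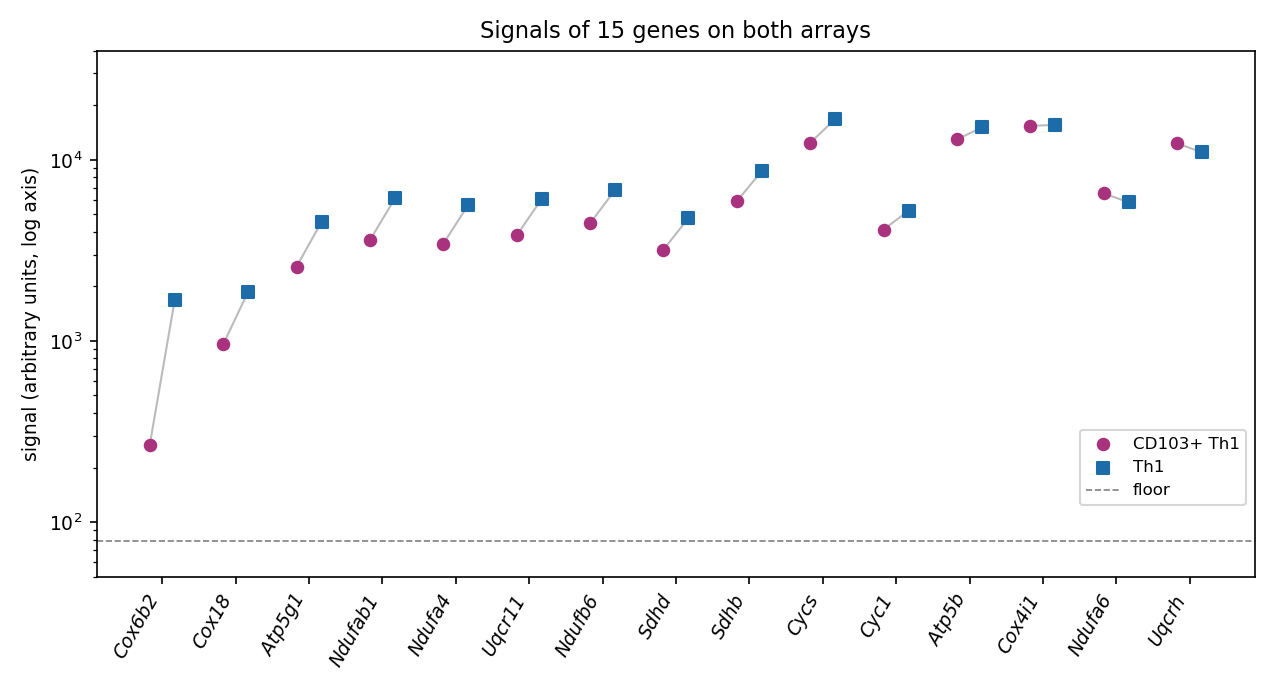
Signals of 15 genes (log axis, arbitrary units) on the CD103+ Th1 array (circles) and the Th1 array (squares), with the floor of 78.5 as a dashed line. Cox6b2 has 267.6 in CD103+ Th1 against 1686 in Th1, Cox4i1 has nearly equal signals, and Ndufa6 and Uqcrh are higher in CD103+ Th1. Signals of different genes come from different probes and are not comparable.

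ATP synthase genes had the narrowest middle range of the 5 complexes, with quartiles of -0.28 and -0.17. The 5 genes of the catalytic F1 head, Atp5a1 (α), Atp5b (β), Atp5c1 (γ), Atp5d (δ) and Atp5e (ε), had log2 ratios from -0.23 to -0.12. Atp5b, which holds the catalytic sites, had 12970 in CD103+ Th1 against 15094 in Th1, 1.16-fold lower. None of the F1 genes reached -0.32.

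The c subunit, which forms the rotating ring, is made from 3 genes. Atp5g1 had 2572 in CD103+ Th1 against 4542 in Th1, 1.77-fold lower, the largest difference in complex V. Atp5g2 had 9406 in CD103+ Th1 against 11035 in Th1, 1.17-fold lower, and Atp5g3 had 15392 in CD103+ Th1 against 17580 in Th1, 1.14-fold lower. The 3 genes encode the same mature protein behind different import sequences.

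Of the stalk and small membrane subunits, Atp5md, also called DAPIT, had 7472 in CD103+ Th1 against 10180 in Th1, 1.36-fold lower. Atp5pb (subunit b) was at -0.30, Atp5j (F6) at -0.29, Atp5o (OSCP) at -0.28, Atp5j2 (f) at -0.26 and Atp5k (e) at -0.25. The lowest probe sets of Atp5pb, Atp5o, Atp5j2 and Atp5k were at -0.46, -0.33, -0.40 and -0.39, and a dim one of Atp5j2 was at 0.001. Atp5h (d) had 14676 in CD103+ Th1 against 14011 in Th1, and Atp5l (g) had 9527 in CD103+ Th1 against 9402 in Th1, log2 ratios of 0.07 and 0.02. Only these 2 of the 17 genes of complex V were above 0.

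Assembly factors are not subunits but build the complexes. Cox18, which inserts a core subunit of complex IV into the membrane, had 956.5 in CD103+ Th1 against 1870 in Th1, 1.96-fold lower, on its 1 probe set. Cox17, a copper chaperone of complex IV, had 5897 in CD103+ Th1 against 9295 in Th1, 1.58-fold lower. Cox16 had 1516 in CD103+ Th1 against 2125 in Th1, 1.40-fold lower. All of them act on complex IV, whose own genes mostly differed by less.

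Among the complex I factors, Ndufaf6 had 312.2 in CD103+ Th1 against 518.3 in Th1, 1.66-fold lower, a log2 ratio of -0.73 that became -0.13 with the floor at the 75th percentile, above its CD103+ Th1 signal. Ndufaf1 had 747.5 in CD103+ Th1 against 1173 in Th1, 1.57-fold lower. Ndufaf4 had 540 in CD103+ Th1 against 819.8 in Th1, 1.52-fold lower, but its other probe set was at 0.12. The 8 complex I factors had a median of -0.42 with 5 (62.5%) at -0.32 or lower, and the 8 complex IV factors one of -0.25 with 4 (50%). Of all measured genes, 26.5% were at -0.32 or lower, and with 8 genes each no difference from this share was tested. The factors above 0 were Ndufaf2 at 0.10, Cox20 at 0.06 and Cox10, which makes the heme of complex IV, at 0.16.

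Where a gene had several probe sets, they mostly had the same direction. Of 51 genes with more than 1 measured probe set, 34 had all of them below 0, 4 had all above 0 and 13 had both directions. The median distance between the highest and the lowest log2 ratio of a gene was 0.15 and the largest 0.83, in Ndufb8. Probe sets that reached a signal of 1000 on an array were below 0 in 127 of 139 cases, and dimmer ones in 23 of 39. Many of the brightest probe sets carry a suffix. Depending on its letter, it marks several transcripts of 1 gene or possible matches to other genes. Respiratory genes have many processed pseudogenes, so copies may share signal.

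**Figure D4:**
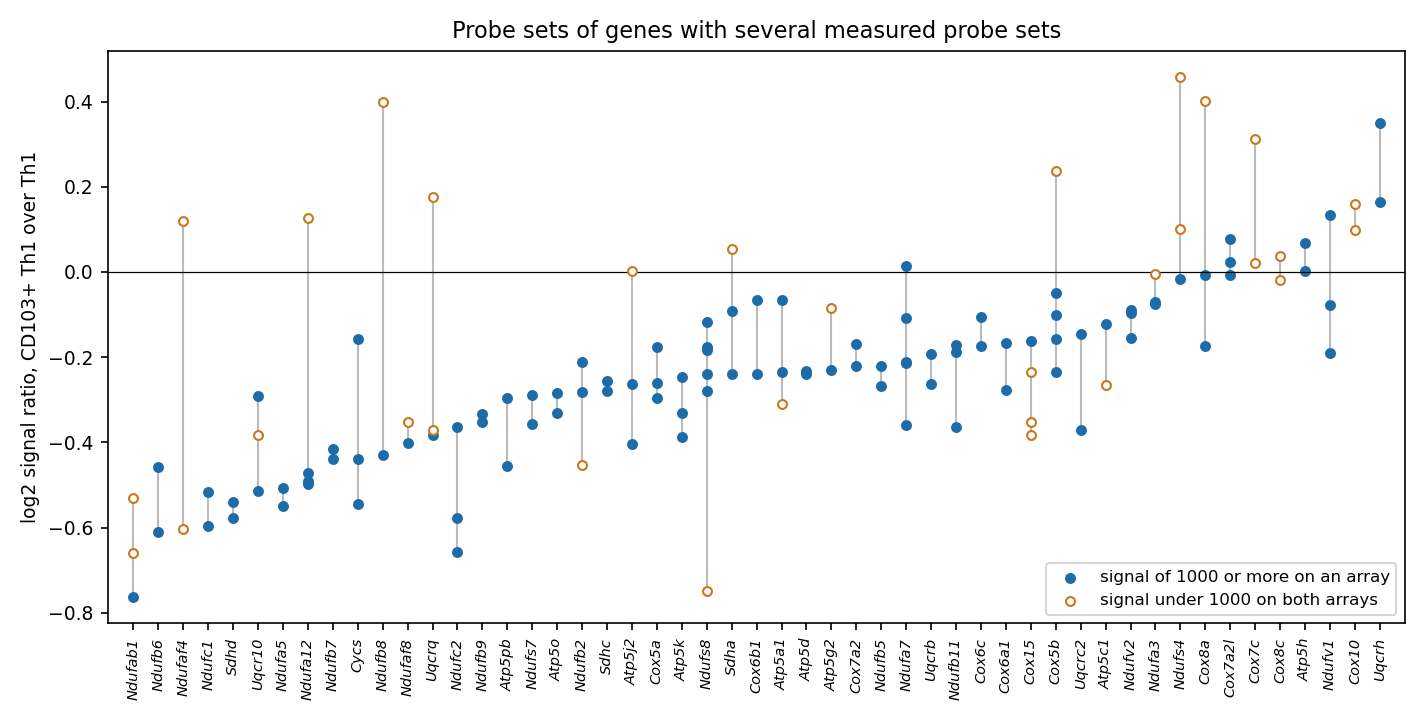
Log2 signal ratio, CD103+ Th1 over Th1, of every measured probe set of the 51 genes with more than 1, genes ordered by their brightest probe set and joined by a line. Filled points reach a signal of 1000 on an array and open points do not. Of the 13 genes with probe sets in both directions, several owe it to an open point, as Ndufb8, Ndufaf4, Ndufa12 and Uqcrq do.

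Promoters were compared because most of the genes were below 1. The windows of RefSeq (build GRCm38.p6) hold 250 bases before and 50 after a gene's start, and 81 of the 100 genes had such a window. They were searched on both strands for GCGCATG (part of the site of NRF1, a regulator of respiratory genes), CCGGAAG (the core of ETS sites, which the regulator GABP binds) and AAGATGG (part of the YY1 site). The first was in 18.5% of these genes, against 8.06% of measured genes and 4.41% of all genes with a window. CCGGAAG was in 28.4%, against 20.9% and 9.93%, and AAGATGG in 16%, against 8.57% and 7.28%. CCGGAAG and AAGATGG can share the letters AAG, and a full NRF1 site holds GCGCATG on both strands. A match is a description and not a bound site.

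Medians with and without these letters were close. The 40 measured genes with at least 1 of the motifs had a median log2 ratio of -0.24, and the 38 without had one of -0.24 too. With GCGCATG the median was -0.31 over 15 genes, and without it -0.24 over 63. With CCGGAAG it was -0.24 over 23 genes, and without it -0.24 over 55. With AAGATGG it was -0.26 over 13 genes, and without it -0.24 over 65. The 5 windows below show Cox6b2, the gene with the largest difference, its general isoform Cox6b1, and 3 lower genes picked for a motif, Cycs, Sdhb and Uqcr11. Atp5g1, Ndufab1, Ndufb1 and Ndufa4 had lower ratios than these 3, and their windows held none of the motifs. Sequences run 5′ to 3′ along the gene, and capitals mark the motifs on either strand.
Cox6b2 (chr7:4753045-4753344, minus strand): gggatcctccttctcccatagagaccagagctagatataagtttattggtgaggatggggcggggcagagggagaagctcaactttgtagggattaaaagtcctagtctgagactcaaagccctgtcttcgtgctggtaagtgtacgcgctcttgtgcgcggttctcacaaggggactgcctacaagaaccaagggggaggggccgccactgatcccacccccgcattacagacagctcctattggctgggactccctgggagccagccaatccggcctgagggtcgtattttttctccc
Cox6b1 (chr7:30626065-30626364, minus strand): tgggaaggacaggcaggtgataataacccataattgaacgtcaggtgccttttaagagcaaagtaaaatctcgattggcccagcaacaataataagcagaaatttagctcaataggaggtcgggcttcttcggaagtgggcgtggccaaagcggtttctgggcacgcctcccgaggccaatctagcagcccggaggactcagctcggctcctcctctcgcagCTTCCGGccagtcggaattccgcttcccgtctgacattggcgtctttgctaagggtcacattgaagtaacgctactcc
Cycs (chr6:50566520-50566819, minus strand): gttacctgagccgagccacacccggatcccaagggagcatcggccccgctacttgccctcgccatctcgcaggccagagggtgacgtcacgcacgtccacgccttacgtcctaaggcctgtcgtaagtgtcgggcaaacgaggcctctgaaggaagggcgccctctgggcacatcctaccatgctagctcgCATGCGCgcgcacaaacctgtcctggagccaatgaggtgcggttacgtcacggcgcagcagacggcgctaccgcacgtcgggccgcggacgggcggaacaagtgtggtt
Sdhb (chr4:140961021-140961320, plus strand): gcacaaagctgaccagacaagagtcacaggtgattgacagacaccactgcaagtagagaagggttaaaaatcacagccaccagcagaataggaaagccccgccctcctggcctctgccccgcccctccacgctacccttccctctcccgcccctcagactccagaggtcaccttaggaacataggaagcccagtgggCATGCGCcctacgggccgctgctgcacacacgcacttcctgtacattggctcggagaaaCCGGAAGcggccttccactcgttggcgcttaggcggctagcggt
Uqcr11 (chr10:80406772-80407071, minus strand): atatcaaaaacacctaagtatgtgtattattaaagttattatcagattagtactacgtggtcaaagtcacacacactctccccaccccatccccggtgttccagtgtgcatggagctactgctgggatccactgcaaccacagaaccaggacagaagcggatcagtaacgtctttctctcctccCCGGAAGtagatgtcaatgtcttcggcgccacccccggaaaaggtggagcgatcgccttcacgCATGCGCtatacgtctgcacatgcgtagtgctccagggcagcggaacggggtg
The Cox6b2 window held none of the 3 motifs and that of Cox6b1 held CCGGAAG. Cycs held the NRF1 letters, and Sdhb and Uqcr11 held both these and the ETS letters.

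Genes around the chain were examined through lists, given here without the genes already described. Of 17 measured Krebs cycle and pyruvate dehydrogenase genes, 15 were below 1, 8 were at -0.32 or lower and 0 at 0.32 or higher, and the list's median was -0.31. The shares over all measured genes were 52.6%, 26.5% and 23.6%. Idh3a, the catalytic subunit of NAD-dependent isocitrate dehydrogenase, had 2077 in CD103+ Th1 against 3761 in Th1, 1.81-fold lower on its brightest probe set, with another at 0.72. Fh1 (fumarase) was at -0.56 and Cs (citrate synthase) at -0.54. Mdh2 (malate dehydrogenase) had 10087 in CD103+ Th1 against 14109 in Th1.

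Among 20 measured carriers, electron donors and partners of the chain, 19 were below 1, against 52.6% of all measured genes. At the threshold of -0.32 or lower were 10, against 26.5% of all measured genes, and the median of the list was -0.32. Gpd2, the mitochondrial glycerol-3-phosphate dehydrogenase that feeds electrons from the cytosol into ubiquinone, had 229.7 in CD103+ Th1 against 955.8 in Th1, 4.16-fold lower, with all its measured probe sets between -2.87 and -1.84. Romo1, a small membrane protein linked to reactive oxygen, had 3524 in CD103+ Th1 against 6301 in Th1, 1.79-fold lower. Chchd4, which folds proteins of the intermembrane space, was at -0.80. Vdac1, a main channel of the outer membrane, had 10235 in CD103+ Th1 against 15321 in Th1, a log2 ratio of -0.58.

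Assembly factors outside the symbol rule were more divided, with a median of -0.11. Below 1 were 15 of 27 measured, against 52.6% of all measured genes. Coa7 had 183.2 in CD103+ Th1 against 460.4 in Th1, 2.51-fold lower, and Uqcc2, for complex III, had 2308 in CD103+ Th1 against 5151 in Th1, 2.23-fold lower on the brighter of its 2 probe sets, with the other at a log2 ratio of -0.37. Sco2, a copper chaperone, was at -0.83. Tmem126b, for complex I, had 223.1 in CD103+ Th1 against 110.9 in Th1, 2.01-fold higher on 1 probe set.

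Regulators of mitochondrial biogenesis did not share a direction. Of 17 measured, 8 were below 1, 6 were at -0.32 or lower and 1 at 0.32 or higher, and the median was 0.08. For all measured genes these shares were 52.6%, 26.5% and 23.6%. Nrf1 had 682 in CD103+ Th1 against 958.3 in Th1, a log2 ratio of -0.49, but another of its probe sets was at 1.13. Tfam, which packs and transcribes mitochondrial DNA, had 2268 in CD103+ Th1 against 2094 in Th1. Ppargc1a, for the coactivator PGC-1α, lay under the floor on both arrays.

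The table also named 1 gene of the mitochondrial genome. ND5, a core subunit of complex I, had 16260 in CD103+ Th1 against 9349 in Th1, 1.74-fold higher on its 1 probe set, opposite to most nuclear genes of the complex. No other subunit of the mitochondrial genome was analysed here. No measured nuclear gene of complex I reached a log2 ratio of 0.32 on its brightest probe set. Dim probe sets of Ndufs4 and Ndufb8 were at 0.46 and 0.40.

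**Figure D5:**
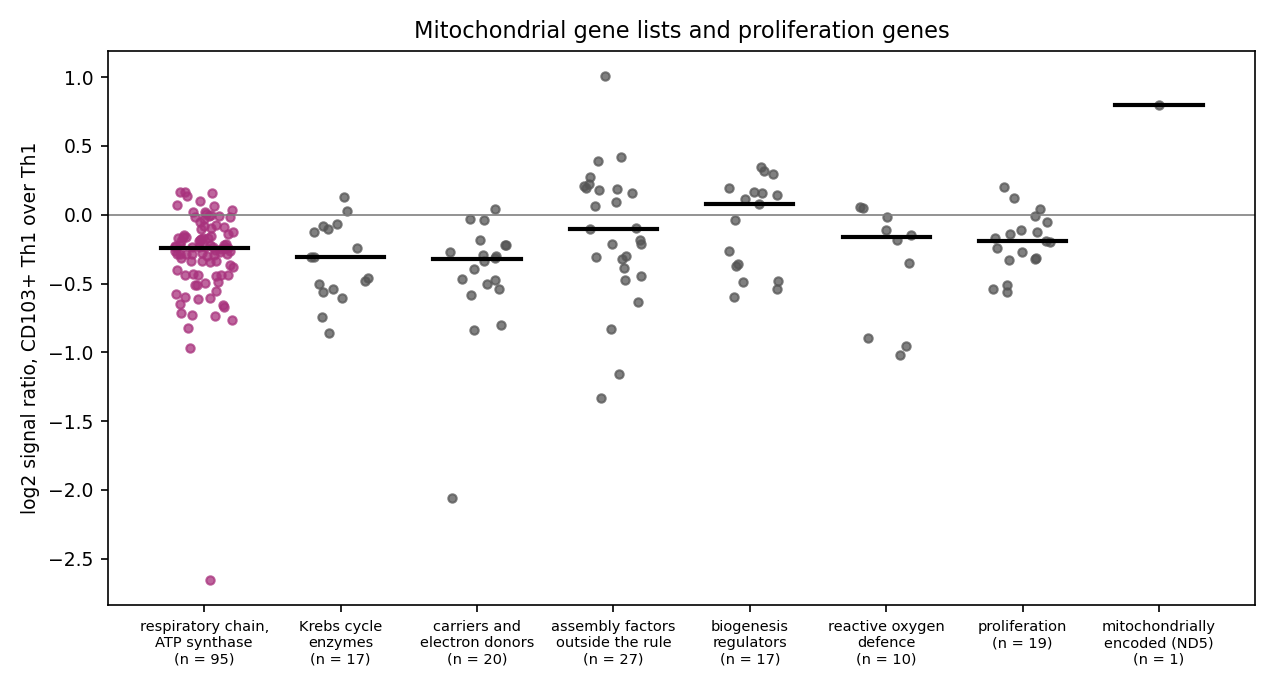
Log2 signal ratio, CD103+ Th1 over Th1, of each measured gene (points) of the respiratory chain and ATP synthase genes and of 7 further lists, without shared genes, with medians as black bars. Krebs cycle genes (median -0.31) and carriers and electron donors (-0.32) lie mostly below 0, biogenesis regulators (0.08) on both sides, and ND5 at 0.80.

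Other large gene families gave values that overlap with these. Of 76 measured mitochondrial ribosomal protein genes, 65 were below 1, with a median of -0.35, and of 47 proteasome subunit genes 36 were below 1, with a median of -0.22. The 47 cytosolic ribosomal protein genes had 37 below 1 and a median of -0.06, and of all measured genes 52.6% were below 1. The respiratory chain and ATP synthase genes, at -0.24, lay between these families, and no difference between families was tested.

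Checks of the cells gave the following. The median of all signals was 78 on the CD103+ Th1 array and 78.8 on the Th1 array. Of 10 measured T cell markers, 8 were above 0, the median was 0.20, and the sum of their signals was 90680 in CD103+ Th1 against 79398 in Th1. Cd8a and Cd8b1, markers of CD8 T cells, had 2054 and 1593 in CD103+ Th1, against 465.6 and 697.3 in Th1. Of the markers listed for CD8, γδ and NK lineages, 6 were found, and 3 of these were under the floor. No γδ T cell receptor gene was among the 6. Their summed signals were 7004 in CD103+ Th1 against 3378 in Th1, and without Cd8a 4949 in CD103+ Th1 against 2912 in Th1. The measured probe sets of Cd8a had log2 ratios from 0.24 to 2.16. B cell markers were under the floor in 5 of 9 cases, among them Ms4a1, Pax5 and Cd79a, with sums of 656.5 in CD103+ Th1 against 547.0 in Th1. Of the others, Cd79b had 244 in CD103+ Th1 and was under the floor in Th1, at least 3.11-fold higher, and without it the sums were 412.5 in CD103+ Th1 against 471.2 in Th1. Myeloid and dendritic cell markers were under it in 7 of 13, among them Lyz2 and Itgam, with sums of 1212 in CD103+ Th1 against 908.4 in Th1. Mpeg1 had 660.2 in CD103+ Th1 and was under the floor in Th1, at least 8.41-fold higher, and without it the sums were 552.0 in CD103+ Th1 against 902.7 in Th1. Cd68 had 103.8 in CD103+ Th1 against 233.1 in Th1, and Csf1r had 117.7 in CD103+ Th1 against 187.2 in Th1. Erythroid markers were under the floor in 4 of 4 cases. Proliferation genes, whose products cells need as they divide, had a median of -0.19 with 16 of 19 measured below 1, against 52.6% of all measured genes. At -0.32 or lower were 4 of the 19, against 26.5% of all measured genes. Among 9 housekeeping genes other than Sdha, the median was 0.07, 4 were below 1, and the range was from -1.05 in Gusb to 0.21 in Tfrc, with Hprt at -0.52. The part of these differences in the ratios of the respiratory genes was not tested.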

How the data were processed

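The members and lists were chosen with earlier results of these data known. The deposited values are linear signal intensities, 1 for each probe set on each array, which the authors made with Affymetrix GCOS, per the submitters' processing notes. Its version, scaling and filters are not given in the sources used here. No further scaling was applied, as the trimmed means (2% cut at each end) were 498 on both arrays. Probe sets with 1 symbol (34945 of 45037) were named through the platform annotation, and 34741 of them matched the GRCm38.p6 gene table. The symbols of all 100 members stood unchanged there. A further 11 probe sets named such genes together with another gene and were left out.

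Signals under the floor were set to it. The brightest probe set per gene had the highest mean log2 signal. Every gene of the symbol rule could be named, and of each other list up to 4 of those with the largest ratios. Cs, Mdh2, Tfam, Ppargc1a, Sod1, Ms4a1, Pax5, Cd79a, Lyz2 and Itgam were named after their values were seen, as were the signals of Atp5b, Ndufv1 and Ndufa6. The steps were tested on simulated data. Python 3.11.15, pandas 2.3.3 and statsmodels 0.14.6 were used. With 1 array per condition, the number of arrays limits the precision and no test was made.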

Additional observations from a re-analysis of the deposited data

How the results depend on the processing

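The direction of the median over these genes held under all 10 alternatives tried. It ranged from -0.24 to -0.16, with -0.16 where ratios were centred by a lowess curve over mean signal, and the share of genes below 1 ranged from 80.8% to 91.0%. The 10 were equal medians, quantile normalization, the lowess curve, floors at the 25th and 75th percentile, a pseudocount without floor, the mean of probe sets, probe sets without suffix letters, updated symbols and subunits only. Updated symbols gave the same 95 genes with the same values, so that alternative was no separate check. The median of all measured genes stayed between -0.05 and -0.01. The complex V median was -0.15 with quantile normalization and -0.13 with the lowess curve. The complex IV median was -0.054 with the lowess curve, -0.061 with the mean of probe sets, -0.048 without suffix letters, and -0.094 with Ndufa4 in complex I, an alternative chosen after seeing the data. At least 2-fold lower were 2 genes with the floor at the 25th percentile and 2 with the pseudocount. At a log2 ratio of 0.32 or higher were 2 genes with probe sets without suffix letters. With the settings of the main results, 13 of the 95 genes were at least 1.5-fold lower. Without suffix letters the direction of Ndufa12 turned, to 0.13, and that of Uqcrq, to 0.18, both on dim probe sets, that of Ndufa12 under the floor in Th1. With the floor at the 75th percentile, Cox6b2 was at -1.84 and Ndufaf6 at -0.13, both with CD103+ Th1 signals under that floor, and with the mean of probe sets Ndufaf4 was at -0.24. For these values the cause was not tested. The other 530 of 535 values of 56 named genes moved by less than 0.32 on the log2 scale. No paired analysis was possible because each condition had 1 array, and no replicate could be left out. Bright signals may be compressed and dim ones are near background, and neither can be measured from these 2 arrays.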

Other observations

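Genes of the defence against reactive oxygen, which the respiratory chain produces, mostly had lower signals in CD103+ Th1. Of 10 measured genes, 8 were below 1, 4 had a log2 ratio of -0.32 or lower and 0 one of 0.32 or higher, and the median was -0.16. Over all measured genes 52.6% were below 1, 26.5% were at -0.32 or lower and 23.6% at 0.32 or higher, and with 10 genes no difference from these shares was tested. Gsr, for glutathione reductase, had 708.8 in CD103+ Th1 and 1438 in Th1, a log2 ratio of -1.02. Sod2, for the manganese superoxide dismutase of the mitochondrial matrix, had 1798 in CD103+ Th1 against 3345 in Th1, 1.86-fold lower on its brightest probe set, with all its measured probe sets below 0. Txnrd2, for mitochondrial thioredoxin reductase, had 187.8 in CD103+ Th1 and 364.2 in Th1. Sod1, for the mainly cytosolic dismutase, had 11432 in CD103+ Th1 against 11065 in Th1.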
